A study of Mus musculus with 4 samples.

Results

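Accessible chromatin was described around Lhx2 and Lhx9, which encode LIM-homeodomain transcription factors, and around Ldb1, which encodes the cofactor that binds their LIM domains. Members were the regions of 2 ATAC-seq peak lists that overlapped 100 kb on either side of the gene's outer 5′ end in the mouse build mm10. The rule found 61 of the 99427 regions of the E10.5 list and 29 of the 37548 regions of the E11.5 list, where E stands for embryonic day. At E10.5 the windows of Lhx2, Lhx9 and Ldb1 held 29, 14 and 18 regions, and at E11.5 they held 7, 8 and 14. Promoter regions lay within 1 kb of a start site of the gene. They numbered 3, 2 and 4 at E10.5, and 2, 3 and 2 at E11.5. The other regions, called distal, numbered 26, 12 and 14 at E10.5, and 5, 5 and 12 at E11.5.

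ATAC-seq uses the Tn5 transposase to tag DNA that is not packed away. The 4 libraries came from fore- and hindlimbs of wild-type mouse embryos, 2 for each stage, with no allele or agent that differs between the groups. The protocol calls the earlier stage E10, and the sample titles were followed. Each library is labelled with both limb types and the protocol names no sort, so ectoderm and mesenchyme are mixed, and fewer cells with an open region cannot be told apart from a region that is less open in each cell. The study asks how En1, a regulator of ventral limb identity, is controlled over time. Each deposited list joins both replicates of its stage. There is therefore no spread between replicates and no test between stages, and the depth of the libraries is unknown, so the differences below describe these lists.

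LIM-homeodomain proteins pair a DNA-binding homeodomain with LIM domains that bind proteins. LDB1 forms dimers through its N-terminal part, holds LIM proteins through a short C-terminal domain, and so links factors bound at separate DNA elements. In the mouse limb bud, Lhx2 and Lhx9 are expressed in the distal mesenchyme under the apical ridge, where they act redundantly with each other and with Lmx1b in outgrowth, and the fly counterpart of Lhx2 and Lhx9, apterous, patterns the wing.

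Promoter sequences are shown for start sites that differ in base composition and in whether a region lay over them. They are the 250 bases before a start site in the RefSeq promoter table, assembly GRCm38.p6 (mm10 coordinates). The table gave 6 start sites for the 3 genes, and 5 are printed. The Ldb1 5′ start site is the outermost of this table and lies inside the outer gene end at 46048145. Capitals mark the GC box GGGCGG or its reverse complement CCGCCC, and the CCAAT box or its reverse complement ATTGG.
Lhx2, 5′ start site, chr2:38339031-38339280, plus strand: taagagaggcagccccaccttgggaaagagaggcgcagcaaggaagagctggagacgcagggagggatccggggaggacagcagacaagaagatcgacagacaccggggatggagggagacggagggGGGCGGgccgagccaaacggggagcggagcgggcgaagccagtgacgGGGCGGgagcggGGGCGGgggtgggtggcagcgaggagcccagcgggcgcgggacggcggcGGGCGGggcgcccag
Lhx2, internal start site, chr2:38351058-38351307, plus strand: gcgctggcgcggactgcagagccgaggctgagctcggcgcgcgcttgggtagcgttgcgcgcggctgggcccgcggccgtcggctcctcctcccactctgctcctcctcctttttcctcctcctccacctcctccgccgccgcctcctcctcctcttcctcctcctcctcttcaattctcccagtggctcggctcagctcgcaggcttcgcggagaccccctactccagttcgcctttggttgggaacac
Lhx9, internal start site, chr1:138842445-138842694, minus strand: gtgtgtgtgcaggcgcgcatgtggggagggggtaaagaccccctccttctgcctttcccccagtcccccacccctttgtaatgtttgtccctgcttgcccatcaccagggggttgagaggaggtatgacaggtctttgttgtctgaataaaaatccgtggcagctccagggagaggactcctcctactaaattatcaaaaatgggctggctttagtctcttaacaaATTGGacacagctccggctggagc
Ldb1, 5′ start site, chr19:46045312-46045561, minus strand: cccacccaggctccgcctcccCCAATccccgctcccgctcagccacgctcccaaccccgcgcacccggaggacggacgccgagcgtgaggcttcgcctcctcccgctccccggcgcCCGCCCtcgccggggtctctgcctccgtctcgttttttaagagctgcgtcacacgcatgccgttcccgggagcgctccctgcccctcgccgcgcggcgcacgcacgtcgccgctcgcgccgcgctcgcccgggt
Ldb1, 3′ start site, chr19:46037071-46037320, minus strand: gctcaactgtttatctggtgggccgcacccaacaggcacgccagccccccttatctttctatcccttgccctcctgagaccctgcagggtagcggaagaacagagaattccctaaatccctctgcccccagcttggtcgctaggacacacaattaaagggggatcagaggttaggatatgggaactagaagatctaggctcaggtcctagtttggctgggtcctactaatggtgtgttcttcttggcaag

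The Ldb1 sequence before its 5′ start site was the richest of these in CpG, the dinucleotide at which vertebrate DNA is methylated, with 40 CpG and 76.0% G and C. Across the 32851 promoter sequences of the table the medians were 6 CpG and 52.4%. The sequences before the Lhx2 start sites held 25 and 24 CpG, whereas the Lhx9 sequence held 4. The Ldb1 3′ start site, where no region lay over the start in either list, also had 4 CpG. The Lhx9 start site was covered in both lists with the same number. GC boxes numbered 4 at the Lhx2 5′ start site, 1 at the Ldb1 5′ start site and 4 at the middle Ldb1 start site (chr19:46039622-46039871, not printed), where 2 of the matches overlap each other. At least 1 GC box was found in 32.7% of all promoter sequences. A CCAAT box was found once each at Lhx9 and at the Ldb1 5′ start site, and in 33.8% of all. TAATTA, a core that many homeodomains including those of the LIM family bind, and TGATTA (reverse complement TAATCA) had no match in the 6 sequences, and 4.84% and 7.21% of all promoter sequences held them. Both strands were searched, and TAATTA is its own reverse complement.

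Lhx2 had the strongest promoter region of the 3 genes. It is a plus-strand gene, spanning 38339271 to 38369737 of chromosome 2. Over its internal start site at 38351308, the E10.5 list had a region at 38349917 to 38355592 with a signal of 17671, rank 232 of 99427 by signal. Signal is the authors' value for the whole region and grows with its width, so it is used to rank within a list. This region carried 3.11 signal per bp, with 14.6 as its −log10 p. In the E11.5 list it was met by 2 regions, at 38350377 to 38352614 (signal 4739, rank 3227 of 37548) over the start site and at 38354619 to 38355476 (signal 238). The E10.5 summit lay 282 bp upstream of this start site and the E11.5 summit 202 bp. A start site of the noncoding gene Gm27197 also lay within 1 kb of the E10.5 region and of the E11.5 region over the start site.

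The 5′ start site of Lhx2 lay under weaker regions. At E10.5 the region at 38339068 to 38340049 had a signal of 1457 (rank 34051), and a second at 38338386 to 38338889 had 265. At E11.5 a region at 38339050 to 38339983 had a signal of 627 (rank 20247), with a −log10 p of 3.64. Both lists thus placed the internal start site above the 5′ start site. Per bp the E10.5 signals were 3.11 and 1.48, and the E11.5 signals 2.12 and 0.672. In both lists the regions at the 5′ start site also lay within 1 kb of a start site of Gm46736, a gene not listed as protein-coding.

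Outside the promoters of Lhx2, the next strongest E10.5 region lay 52.2 kb upstream over the start of Dennd1a, a gene of endosomal traffic, at 38286231 to 38287862 (signal 5848). Its E11.5 counterpart at 38286482 to 38287851 had a signal of 4273. A region inside Lhx2 at 38347251 to 38349548, which also overlaps the noncoding gene Gm27197, had a signal of 4397, and at E11.5 the region at 38347882 to 38348556 had 1146. The E11.5 region next in signal after that over the 5′ start site, at 38368796 to 38369124 near the 3′ end of Lhx2, had a signal of 410. The next E10.5 regions by signal, at 38375092 to 38377652 (37.1 kb downstream of the 5′ end, signal 3741) and 38423776 to 38425349 (85.3 kb downstream, signal 2699), lay between genes. Neither had an E11.5 overlap.

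Of the 23 E10.5 regions of the Lhx2 window without overlap, 13 lay beyond the gene. They were all of the E10.5 regions in the 69.5 kb past the 3′ end of Lhx2, and the E11.5 list had 0 regions there. Their signals ran from 208 to 3741 with a median of 610. With the E10.5 list split into deciles by signal, the median overlapping share of their own deciles was 8.89%. Of the 8 E10.5 regions that touch the gene body, 5 overlapped. Of the 8 in the 5′ flank, only the region over the Dennd1a start did. A second E10.5 region within 1 kb of that start, at 38287999 to 38288523 (signal 373), did not. In all, 6 of 29 E10.5 regions of the window overlapped (20.7%, 95% Wilson interval 9.85 to 38.4%, counting error only), where the whole E10.5 list gave 32.3%. All 7 regions of the E11.5 list overlapped one at E10.5, as did 91.6% of that list as a whole.

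Lhx9 was marked by a run of adjoining regions over its 5′ part. The gene lies on the minus strand of chromosome 1 at 138825186 to 138848839. The strongest E10.5 region, at 138840761 to 138845271, covered the internal start site at 138842444 with a signal of 10156 (rank 1810). The next, at 138845694 to 138849314, covered the outer 5′ end with a signal of 8019 (rank 3651). The third, at 138836814 to 138838903 inside the gene, had a signal of 6351. At E11.5 the outer end lay under a region at 138847135 to 138849231 with a signal of 3515 (rank 5727). The internal start site lay under one at 138841412 to 138843125 with 2248 (rank 9433). The order of the Lhx9 promoter regions by signal was therefore not the same in the lists. At E10.5 the region over the internal start site was also the wider, and per bp the values were 2.25 there and 2.21 at the outer end, against 1.31 and 1.68 at E11.5.

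At the outer end of Lhx9 the E10.5 and E11.5 summits fell on the same base, a distance of 0 bp. At the internal start site they were 47 bp apart, at 11 bp downstream of the start and 36 bp upstream of it. The E10.5 region over this start site was met by 3 E11.5 regions, the others being 138843294 to 138844150 (signal 846) and 138844324 to 138844631 (signal 245). The E11.5 region inside the gene at 138837392 to 138838543 had a signal of 1661.

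Upstream of Lhx9, the promoter of 2310009B15Rik held a narrow region in both lists, at 138856074 to 138857006 at E10.5 (signal 4314) and at 138856074 to 138857134 at E11.5 (signal 4579). At E11.5 it was the strongest of the window. Per bp it stood above the Lhx9 promoter regions in both lists, with 4.62 and 4.32. An E10.5 region 5.16 kb upstream of Lhx9, at 138853247 to 138854759 inside 2310009B15Rik, had a signal of 2879 and no overlap. The 5 E10.5 regions past the 3′ end of Lhx9 had signals of 280 to 1476 and none overlapped. The median overlapping share of their own signal deciles was 13.6%. In all 5 of 14 E10.5 regions overlapped (35.7%, 16.3 to 61.2%), beside 32.3% of the whole list. At E11.5, 7 of 8 regions did, beside 91.6%. The exception, inside Lhx9 at 138831399 to 138831616, was the only region of the 3 windows in the E11.5 list without an E10.5 overlap, with a signal of 434, its −log10 p being 5.11.

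Ldb1 sat among promoters of other genes. The gene lies on the minus strand of chromosome 19 at 46031525 to 46048145. Its strongest E10.5 region, at 46043817 to 46047331, covered the promoter table's 5′ start site at 46045311 with a signal of 11541 (rank 1206) and 3.28 signal per bp. The E11.5 region there, at 46044276 to 46046201, had a signal of 3549 (rank 5642). The middle start site at 46039621 lay under a region at 46038528 to 46040700 with 6633 at E10.5, and under one at 46038639 to 46039997 with 2358 at E11.5. Around the 3′ start site at 46037070, the E10.5 list had regions of 274 and 664 within 1 kb, at 46037332 to 46037807 and 46037935 to 46038380, and the E11.5 list had none. The outer gene end at 46048145 is not in the promoter table, and the E10.5 region nearest to it ended 0.814 kb away.

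Of the strongest Ldb1 window regions, several belonged to neighbours. The region at Pprc1, a coactivator of mitochondrial gene programs, had a signal of 8450 at E10.5 (46055859 to 46057683) and was the strongest of the window at E11.5 with 4011 (46055901 to 46057545). Nolc1, a nucleolar protein gene, had 4396 and 2460, Armh3 had 4769 and 2418, and Hps6 had 2975 and 1493. Elovl3 had an E10.5 promoter region only, with a signal of 480. A wide E10.5 region at 46135135 to 46137860 over the ends of Elovl3 and Pitx3, a homeobox gene of lens and midbrain, had a signal of 8524 and was met by 4 E11.5 regions with signals of 211 to 401. Inside Ldb1, the region at 46041332 to 46043639 (5274) was met by 2, with 614 and 528. Altogether 10 of 18 E10.5 regions overlapped (55.6%, 33.7 to 75.4%), beside 32.3% of the whole list. All 14 E11.5 regions did, beside 91.6%. Of the 18 E10.5 regions, 10 lay within 1 kb of a protein-coding start site. Of those 10, 7 overlapped, where the E10.5 list gave 84.1% at such sites. The other 8 had 3 overlapping, beside 22.4%. The intervals of the Lhx2 and Ldb1 shares overlap, which does not show that the shares are alike. The difference between the windows was not tested.

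**Figure D1:**
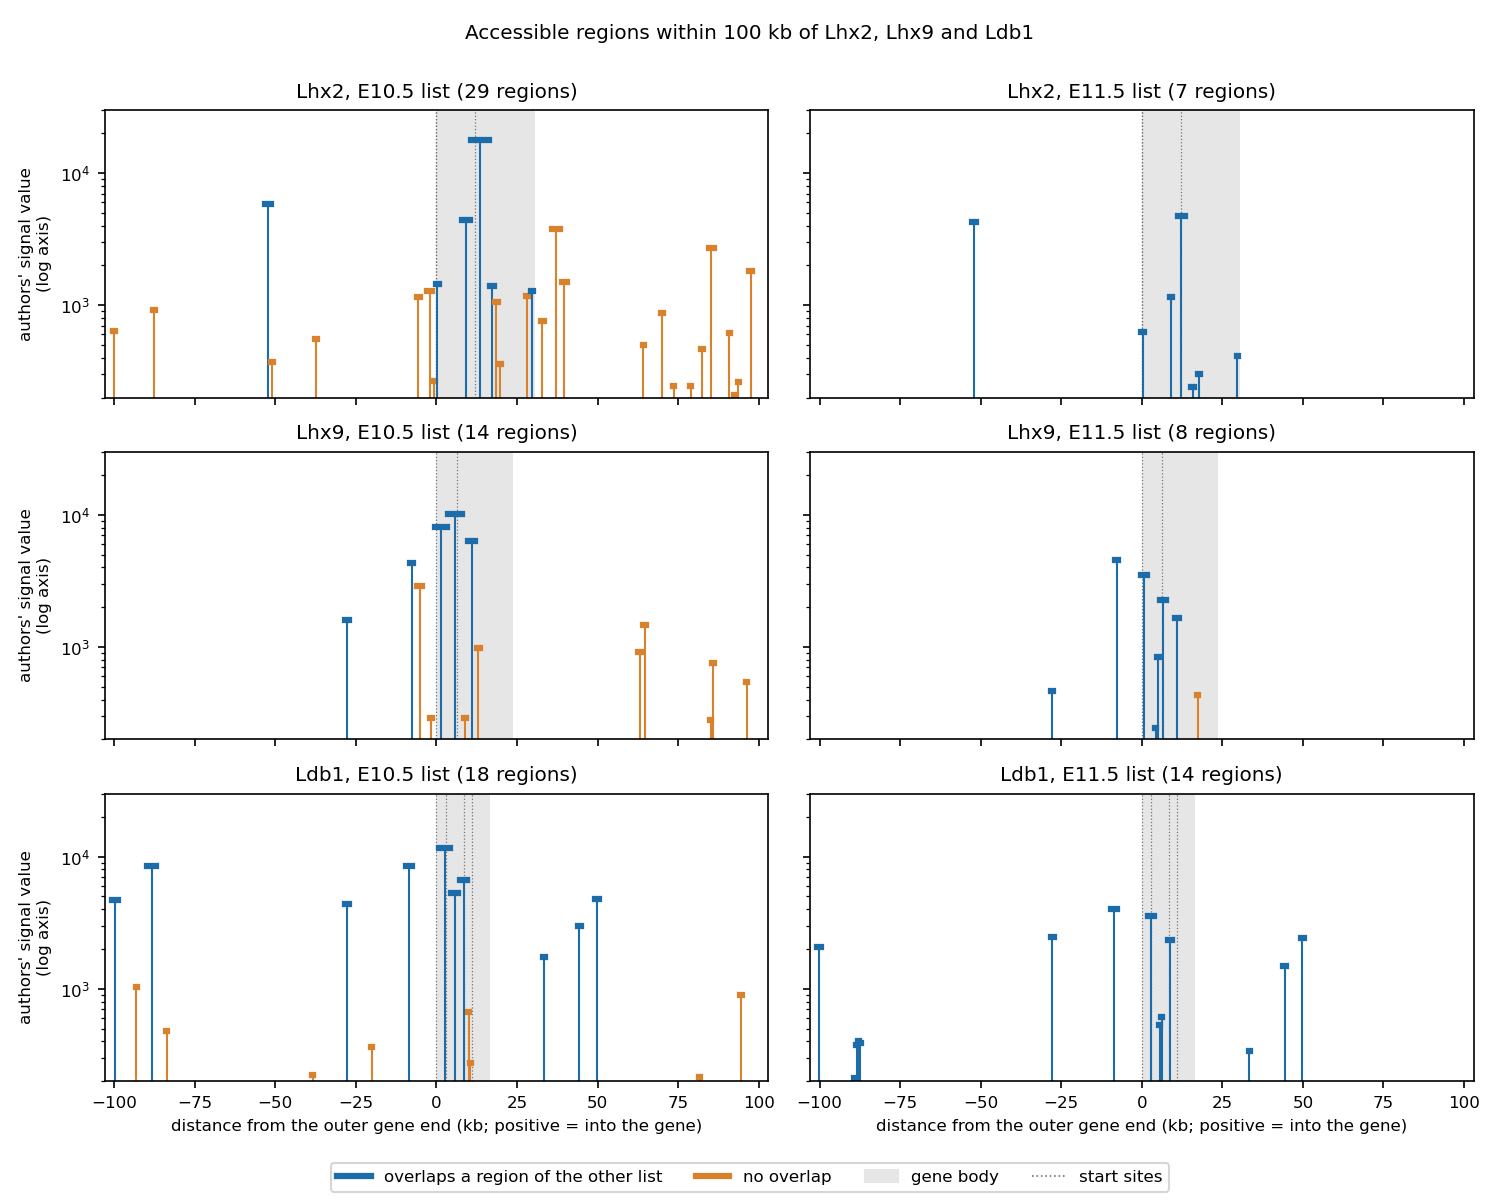
Signal value of each region (log axis) against its distance from the outer gene end in kb, positive into the gene, for the 3 genes (rows) and the 2 lists (columns). Horizontal caps have the width of the region, blue regions overlap the other list and orange ones do not, grey is the gene body and dotted lines are start sites. The 13 E10.5 regions past the 3′ end of Lhx2 are all orange. The median overlapping share of their own signal deciles was 8.89%.

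Overlap was set against signal. In the highest decile of the E10.5 list by signal, 10 of 10 regions of the 3 windows overlapped, where the whole decile gave 96.7%. In the second decile 6 of 8 did (81.3% in the list), in the third 1 of 3 (54.0%) and in the fourth 4 of 7 (33.8%). None of the 33 in the lower 6 deciles overlapped, where the list gave between 3.67% and 20.2% per decile. The exceptions in the second decile were the regions 37.1 kb downstream of the Lhx2 5′ end and 5.16 kb upstream of Lhx9. Of the Lhx2 window's 29 E10.5 regions 13 ranked in the lower 50% of the list by signal, against 5 of 14 for Lhx9 and 6 of 18 for Ldb1. Averaging over its regions the share of their own decile gave 28.6% for Lhx2, 42.7% for Lhx9 and 52.4% for Ldb1, beside 20.7%, 35.7% and 55.6% observed. With the E10.5 list reduced to its 37548 highest signals, the windows held 10, 7 and 10 regions, of which 6, 5 and 10 overlapped. The overlapping share of the whole reduced list was not calculated, so these counts have no matched background. The reduced list takes in deciles 1 to 3 and part of decile 4. The full deciles gave 96.7%, 81.3%, 54.0% and 33.8%, in that order.

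**Figure D2:**
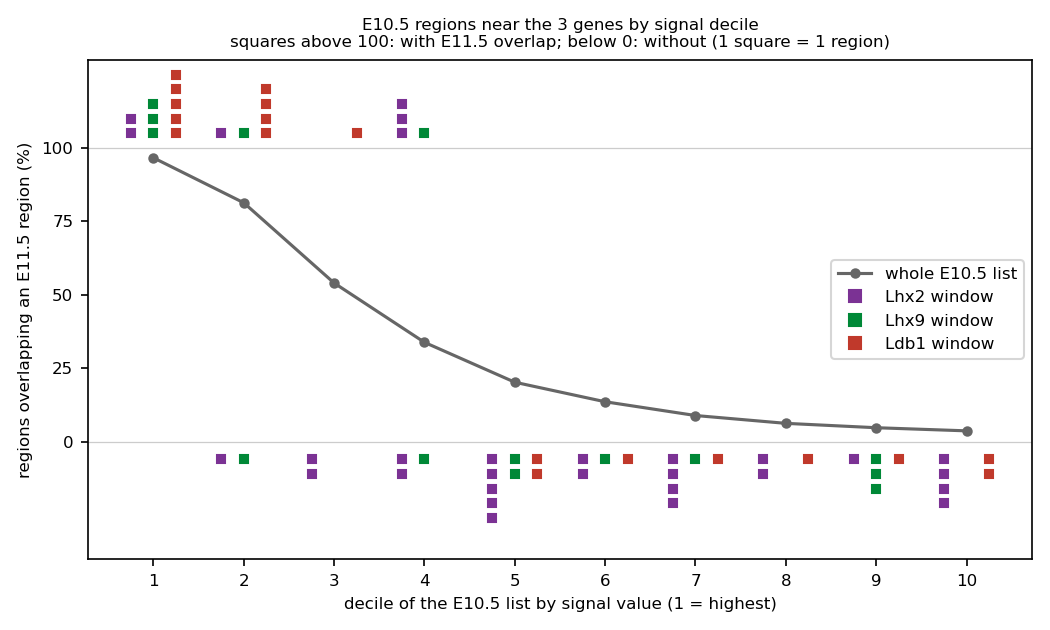
Percentage of E10.5 regions that overlap an E11.5 region, by decile of signal, over the whole list (grey line), with each region of the windows as a square, placed above 100 where it overlaps and below 0 where it does not. All 10 regions of the highest decile sit above, and the 33 of deciles 5 to 10 sit below.

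Overlap was also counted by position. Of the 61 E10.5 regions, 18 lay within 1 kb of a protein-coding start site, of Lhx2, Lhx9, Ldb1 or a neighbour, and 13 of these overlapped, where the whole list gave 84.1%. The other 43 had 8 overlapping, beside 22.4% in the list. At E11.5 all 14 at coding starts overlapped (98.7% in the list), as did 14 of the other 15 (87.3%). Of the 61 E10.5 regions, 4 were met by 2 or more E11.5 regions (6.56%), 1 at Lhx2, 1 at Lhx9 and 2 in the Ldb1 window, beside 2.21% of the whole E10.5 list. These 4 were 5676, 4511, 2308 and 2726 bp wide, where the list median was 624 bp. A wide region can meet more regions, and the 2.21% was not matched for width.

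All 3 genes had a promoter region in both lists, as did 63.1% of 21536 protein-coding genes. For Ldb1 at E11.5 this rests on the start sites of the promoter table, since with the outer gene end as the only start site it had 0 promoter regions there. At E10.5, 69.4% of genes had one, and at E11.5 63.5%. Of all 21536 genes, 1344 had one at E10.5 only and 83 at E11.5 only. Among E10.5 promoters, the strongest region of Lhx2 stood above that of 98.6%, Ldb1 above 93.5% and Lhx9 above 90.2%. Among E11.5 promoters these standings were 75%, 57.9% and 57.3%. A gene with several start sites has more chances of a strong region, and the standings were not adjusted for it. Nor were they adjusted for start sites of other genes within 1 kb, such as Gm27197 at Lhx2, or for width, with which signal grows. The strongest E10.5 promoter regions of Lhx2, Ldb1 and Lhx9 were 5676, 3515 and 4511 bp wide, where the list median was 624 bp. By −log10 p these regions ranked 1111, 8969 and 15073 of 99427, against 232, 1206 and 1810 by signal. By number of regions within 100 kb, Lhx2 with 29 had more than 95.3% of genes at E10.5, and with 7 more than 65.7% at E11.5. Ldb1 with 18 had more than 76.3%, and with 14 more than 92.0%. For Lhx9 the values were 63.1% and 72.4%. The median gene had 10 regions in the earlier list and 5 in the later one. So Lhx2 stood high by number at E10.5 and Ldb1 at E11.5. The E11.5 number was not particular to Ldb1. Its neighbours Pprc1 and Nolc1 had 15 each, more than 93.8% of genes, while Elovl3 had 12 and Armh3 and Hps6 had 9 each. Of the 14 regions in the Ldb1 window, 5 lay at coding start sites of other genes.

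**Figure D3:**
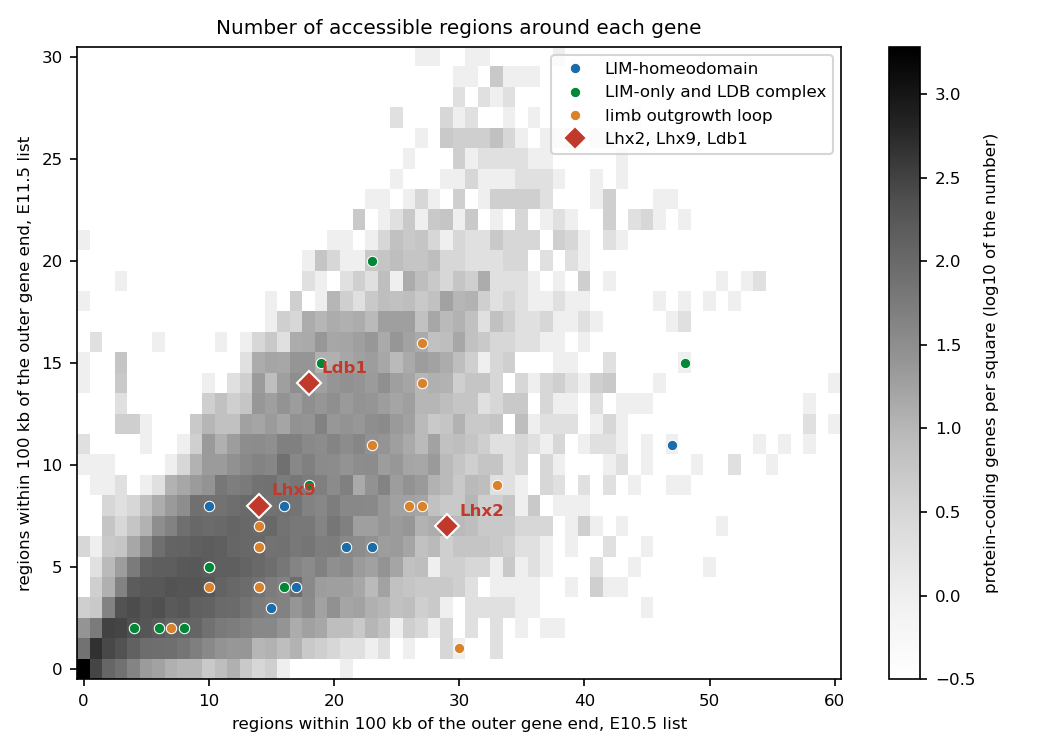
Number of regions within 100 kb in the E10.5 list (horizontal) and the E11.5 list (vertical), with grey squares for all protein-coding genes up to 60 and 30 regions and coloured points for the gene lists. Lhx2 lies far right with 29 and 7, and Ldb1 lies higher with 18 and 14.

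The other LIM-homeodomain genes specify neurons, pituitary, heart, head and dorsal limb. A promoter region was found for all 10 in the E10.5 list and for 9 in the E11.5 list. Over all protein-coding genes the shares were 69.4% and 63.5%. Lhx5, which acts in the forebrain, had one at E10.5 only (signal 364, rank 77521 of 99427). The strongest promoter region of each of these genes at E10.5 had a lower signal than those of Lhx2, Lhx9 and Ldb1, apart from Lmx1b, the factor of dorsal limb identity, with 22123. The E11.5 region at Lmx1b had a signal of 633. Lmx1b also had the most regions of these genes within 100 kb, 47 and 11 in the E10.5 and E11.5 lists. Next at E10.5 came Lhx3, a pituitary and motor neuron factor, with 23, and Lmx1a, a midbrain factor, with 21. At E11.5 these had 6 each, below Isl1 and Lhx6 with 8 each. Isl1, needed for hindlimb initiation, had promoter signals of 5286 and 3912. Its E11.5 value stood above those of Ldb1 (3549) and Lhx9 (3515) and below that of Lhx2 (4739), unlike the order at E10.5. For the 10 genes the median numbers of regions were 15.5 and 6.

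LIM-only proteins compete for LDB proteins, SSBP proteins stabilise the complex, and Rlim encodes a ubiquitin ligase that targets LDB and LIM factors. Of these 9 genes, the E10.5 list gave 8 a promoter region and the E11.5 list 7, beside 69.4% and 63.5% of all protein-coding genes. Lmo3 had one at E10.5 only (signal 416, rank 72911 of 99427). Lmo2, a blood regulator, had none in either list within 1 kb of the start sites used. Ssbp3 had the strongest of these at E10.5, with 27251 (6188 at E11.5), and 48 and 15 regions within 100 kb in the earlier and later list. Ssbp4 had 23581 and 6208, with 23 and 20 regions. Lmo1 had 19 and 15 regions. Lmo4, which is widely expressed in the embryo, had 16476 and 13760 at its promoter, the latter the strongest of the 9 genes at E11.5 and within the top 0.144% of the E11.5 list.

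The outgrowth list holds genes of the signalling loop between apical ridge, mesenchyme and posterior organiser of the limb bud. The E10.5 list held a promoter region for all 12, and the E11.5 list for 9, beside 69.4% and 63.5% of all protein-coding genes. Fgf4 (signal 316), Fgf8 (2637) and Tbx5 (1769) had one at E10.5 only, as did 1344 of 21536 protein-coding genes. The Fgf4 region ranked 82591 of 99427 in a list whose lowest signal was 200. Fgf4 and Fgf8 encode ridge ligands and Tbx5 a forelimb initiation factor. Fgf10, the mesenchymal ligand, had promoter signals of 10791 and 8720. By number of E10.5 regions within 100 kb, Msx1 came first with 33 (9 at E11.5), then Tbx5 with 30 (1 at E11.5), then Fgf4, Hand2 and Ptch1 with 27 each (16, 14 and 8 at E11.5). At E11.5 the order differed, with Fgf4 first and Tbx5 last of the 12. The median of the 12 genes was 24.5 regions at E10.5, against 18 for Lhx2, Lhx9 and Ldb1, and 7.5 and 8 at E11.5.

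**Figure D4:**
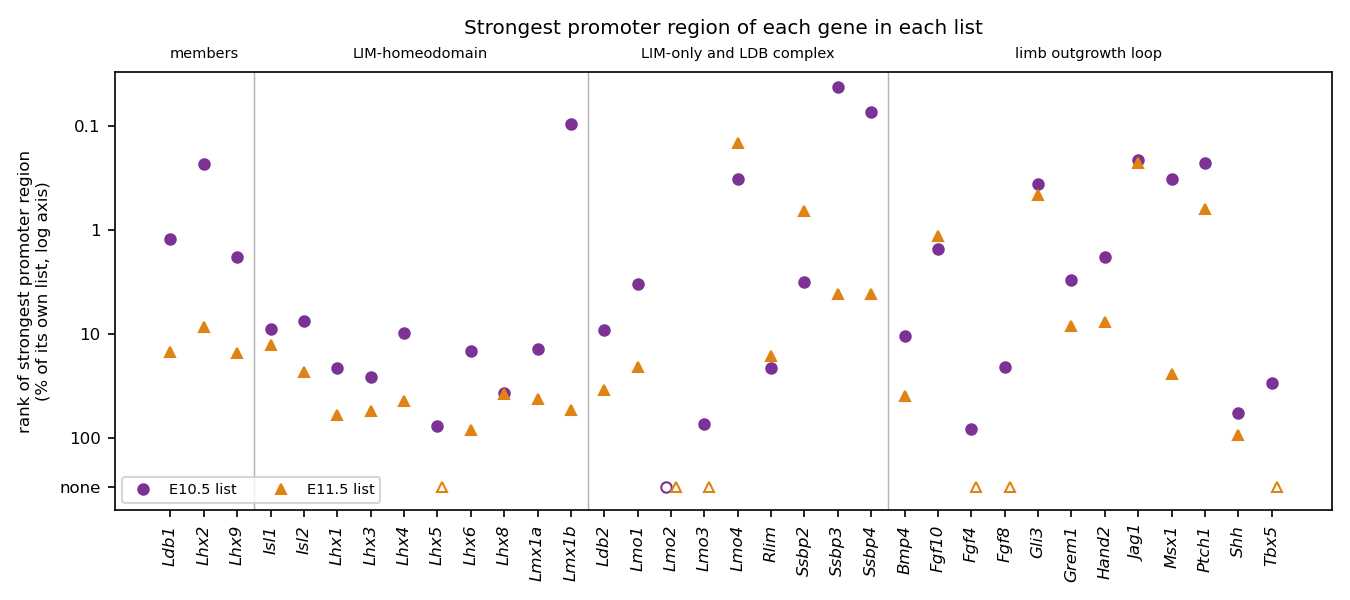
Rank of each gene's strongest promoter region as a percentage of its own list (log axis, strongest at the top), at E10.5 (circles) and E11.5 (triangles), with open marks for no promoter region. Lhx2 stands at 0.233% and 8.59%, Ldb1 at 1.21% and 15%, and Lhx9 at 1.82% and 15.3%. Ranks in lists of different length cannot be used to show a change between stages.

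Genes with the pattern most like each member were sought over 6 values, the number of promoter and of distal regions and the highest promoter signal in each list, each as a percentile over all protein-coding genes. Nearest to Lhx2 were Ccnd3, Lef1 and Septin9, at distances of 6.82, 7.82 and 9.36 percentile points, where the median gene was at 95.3. Nearest to Lhx9 were Tmem9, Grb2 and Nhsl1 at 14.1, 14.3 and 14.6 (median 78.6), and nearest to Ldb1 were Ap5b1, Plxnb2 and Nat14 at 6.24, 8.56 and 9.83 (median 92.8). The likeness rests on 2 lists and is a description.

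At the window edges, the outermost E10.5 region counted for Lhx2 ended 99.9 kb upstream with a signal of 633, and the nearest left out lay 101 kb upstream with 722. For Ldb1 the region at the Pitx3 start (46147091 to 46148923, signals 4735 and, at 46147639 to 46148878, 2088) was counted, and one at 103.7 kb upstream with signals of 7108 and 3459 was not. For Lhx9 the nearest region left out upstream lay 114 kb away, with signals of 6724 and 5434 in the E10.5 and E11.5 lists.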

How the data were processed

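ATAC-seq was performed on limb cells, fixed before tagging per the labels' protocols, with 2 replicates per stage, grouped by sample title. The authors deposited 1 narrowPeak list per stage on mm10, named per the file headers for both libraries of the stage. The submitters' processing notes name cutadapt, Bowtie2, SAMtools, deepTools and Genrich. Their settings, a Tn5 offset correction and the merging of replicates are not given in the sources used here. Per the file headers and values, each peak carries a deposited signal value (from 200 upward, a total over the peak), a −log10 p-value of its own, and a deposited score, which is signal per bp rescaled and capped. The deposited q-value column is -1 in 100% of peaks. Score and q-value were not used.

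Every row of each list was used, with ranks over the whole list. Regions were at least 101 bp apart, and each peak is called a region. Overlap means at least 1 bp. Gene ends came from a RefSeq gene table (GRCm38.p6), and start sites from the RefSeq promoter table plus the outer gene end. Strand came from the promoter table (17492 genes) or by name from GENCODE M1 (4044), which located 21536 of 21887 protein-coding genes (98.4%). Its NCBIM37 coordinates and sequence were not used, and exons and introns in mm10 were not used here. A promoter region lies within 1 kb of any start site of the gene, and other regions of the window are distal. Wilson intervals at 95% cover counting error only. The overlap count was tested on simulated intervals. Python 3.11.15 with pandas 2.3.3, numpy 2.4.6 and scipy 1.17.1 was used.

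The genes, lists, windows and motifs were chosen with earlier results of these data known. Named are the promoter regions, the 5 strongest regions per gene and list, E11.5 regions without overlap, neighbours with a start in a window, and, of each gene list, those with a promoter region in 1 list only and the 3 with most regions at E10.5, ties included. Lmo4, Isl1 and Fgf10, and the Lhx2 and Lhx9 regions shown only as overlap partners or by position, were named after their values were seen. Alternatives were a −log10 p of at least 5, E10.5 lists of matched number, stricter overlap, other windows and other promoter definitions.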

Additional observations from a re-analysis of the deposited data

How the results depend on the processing

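No paired analysis was possible because the replicates of a stage were joined before deposit, which also prevents leaving out a replicate. The unknown depth limits every number of regions. Over 11 alternatives, 21 of the values for the 3 windows together stayed within 1.5 times (counts) or the 95% interval (shares), and 15 did not. By construction, a −log10 p of at least 5 left 38 E10.5 and 16 E11.5 regions. Reducing the E10.5 list to the E11.5 number left 27 regions with 77.8% overlapping when ranked by signal, and 25 with 76.0% overlapping and 5 promoter regions when ranked by −log10 p. A reciprocal overlap of 50% lowered the overlapping share to 23.0% (E10.5) and 48.3% (E11.5), and summits within 100 bp gave the same 23.0% and 48.3%. Under the reduced lists and these overlap rules the shares over the whole lists were not calculated. The shares of the windows there have no background beside them. Windows of 50 kb held 36 E10.5 regions, 50% overlapping. With the outer gene end as the only start site, a choice made after seeing the data, 4 of 9 E10.5 promoter regions remained. At E11.5, 2 of 7 remained. The internal start sites were then left out. Ldb1 then had 0 at E11.5. Centring the windows on the listed start sites, also chosen later, and windows of 200 kb moved no value of the 3 windows together beyond these limits. With 200 kb the Lhx2 window alone held 11 E11.5 regions in place of 7.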
